A study of Mus musculus with 18 samples.

Results

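Abcg2 encodes a transporter of the ABCG subfamily of ATP-binding cassette proteins that exports the DNA dye Hoechst. It is 1 of 18193 genes with a probe set here, and every probe set annotated to it was taken, which was 1 of the 45101 on the array. A single probe set therefore stands for the gene on all 18 arrays. The samples were side population (SP) cells, which keep little Hoechst dye, and nonSP cells, the rest of the culture, of 3 mouse cell lines labelled betaD5, cRAF_cMYC and A2C12, with 3 arrays per line and fraction. Per the labels, all 3 lines grew out of lung tumours of mice aged 8 months that carried both a c-myc and a c-raf transgene, became transformed spontaneously and were cultured alike. The promoters of the transgenes, the number of clones behind a line and the number of mice are not given in the sources used here, and the line labelled cRAF_cMYC is not set apart from the others by its genotype. No line without the transgenes was analysed here. The question the design poses for Abcg2 is whether cells sorted for dye exclusion held more of the transporter's RNA.

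The Abcg2 protein sits in the plasma membrane as a dimer and uses ATP to export flat, often charged molecules, among them Hoechst dye, porphyrins, urate, folates and several anticancer drugs. Loss of Abcg2 in mice strongly depletes the SP fraction of bone marrow, which is why the gene is the usual molecular counterpart of the dye-excluding gate. P-glycoprotein, encoded in mice by Abcb1a and Abcb1b, also exports Hoechst dye, so an SP gate does not by itself name the transporter. The sort acts on transport by the protein, and the arrays measured RNA.

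RefSeq places Abcg2 on the plus strand of mouse chromosome 6 (GRCm38.p6, chr6:58584491-58692451) and lists 3 transcription starts for it. The probe set does not tell transcripts from these starts apart. The sequences before 2 of them are shown because they differ in composition and because several of the transcription factors described below have known binding motifs that can be looked for in them. They are the 250 bases that precede the start at position 58596672 (chr6:58596422-58596671) and the start at position 58640546 (chr6:58640296-58640545), with GC boxes (GGGCGG on either strand) in capitals.
start at 58596672: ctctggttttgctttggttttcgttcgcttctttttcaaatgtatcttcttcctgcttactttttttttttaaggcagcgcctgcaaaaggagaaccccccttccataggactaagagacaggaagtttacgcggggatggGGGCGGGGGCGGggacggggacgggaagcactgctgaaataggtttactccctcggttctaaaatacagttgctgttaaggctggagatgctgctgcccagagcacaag
start at 58640546: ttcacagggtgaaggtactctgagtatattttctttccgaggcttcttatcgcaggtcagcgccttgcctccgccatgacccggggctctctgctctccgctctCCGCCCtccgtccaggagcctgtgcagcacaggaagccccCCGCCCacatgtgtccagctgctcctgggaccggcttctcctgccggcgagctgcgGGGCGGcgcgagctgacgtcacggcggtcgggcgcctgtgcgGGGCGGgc
The window of 300 bases around the third start, 250 before and 50 after it, had a GC content of 67% and 28 CpG dinucleotides, against 48% and 10 around the middle start and 50% and 3 around the first, at position 58584533. The median of all 32851 windows of this length in the RefSeq table was 52.7% and 7. GC boxes, motifs known to be bound by Sp1, numbered 4 around the third start, 2 around the middle one and 0 around the first, and 35.7% of all windows held at least 1. TATAAA, searched like the others on both strands, was found 1 time each around the first and the middle start and in 13.6% of all windows. Both matches lay after the start, beginning at base 42 of the transcript of the first start and base 2 of that of the middle one. GCGTG, the core bound by the aryl hydrocarbon receptor, was found 1 time, 20 bases into the transcript of the third start, and in 32.4% of all windows. ACGTG, the core bound by hypoxia-inducible factors, and TGACNNNGC, the antioxidant response element, were in none of the 3 windows and in 19.6% and 12.4% of all windows. None of these motifs overlapped another. A match describes letters in a window, and the absence of one says nothing of the factor.

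Some properties of the whole array set bear on Abcg2. Values are log2 signals as deposited. Array medians ran from 6.48 to 6.72 in betaD5, from 5.996 to 6.53 in cRAF_cMYC and from 5.80 to 6.06 in A2C12. The SP and nonSP arrays of cRAF_cMYC 1, at 5.996 and 6.035, lay within the range of A2C12. Because array medians differed, line differences are given as deposited and after subtracting each array's median. With the same-numbered partner left out, 11 of the 12 arrays labelled betaD5 or cRAF_cMYC correlated best with an array carrying the other of these labels. For the nonSP array labelled betaD5 1 the highest correlation was 0.989 with a cRAF_cMYC array and 0.964 with a betaD5 array of another number, against 0.990 with its own SP partner. For the nonSP array labelled cRAF_cMYC 3 it was 0.990 with a betaD5 array and 0.967 with a cRAF_cMYC array of another number, against 0.992 with its SP partner. The lines are therefore named as labelled, and results are also given without these 2 pairs. The expression filter left out the 40% of genes with the lowest mean level. All 4 mesothelial and 6 of 7 fibroblast markers lay above it, and all 3 club cell markers below it. Of the alveolar type II markers 2 of 6 lay above it, Sftpb and Abca3, with Sftpc and Nkx2-1 among those below. Of the general epithelial markers 4 of 5 lay above it, Epcam, Krt8, Krt18 and Krt19, with Cdh1 below. Of the leukocyte markers 4 of 7 lay above it, Cd68, Csf1r, Cd14 and Cd3e, with Ptprc among those below. Of the endothelial markers 1 of 7 lay above it, Kdr, with Pecam1 among those below. Fewer cells of a type and less RNA per cell cannot be told apart in such bulk samples.

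Abcg2 RNA differed far more between lines than between SP and nonSP cells. In betaD5 its log2 level was 10.93, 11.54 and 11.10 in SP cells of replicates 1, 2 and 3, against 10.71, 10.88 and 10.66 in nonSP cells. In cRAF_cMYC it was 10.54, 11.03 and 11.25 in SP cells, against 10.42, 10.78 and 10.88 in nonSP cells. In A2C12 it was 8.85, 8.32 and 8.61 in SP cells, against 8.58, 8.50 and 8.53 in nonSP cells. All 12 arrays of betaD5 and cRAF_cMYC were thus above all 6 of A2C12. Within betaD5 every SP array was above every nonSP array, although the lowest SP value and the highest nonSP value differed by little, while the 2 fractions overlapped in cRAF_cMYC and in A2C12.

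**Figure D1:**
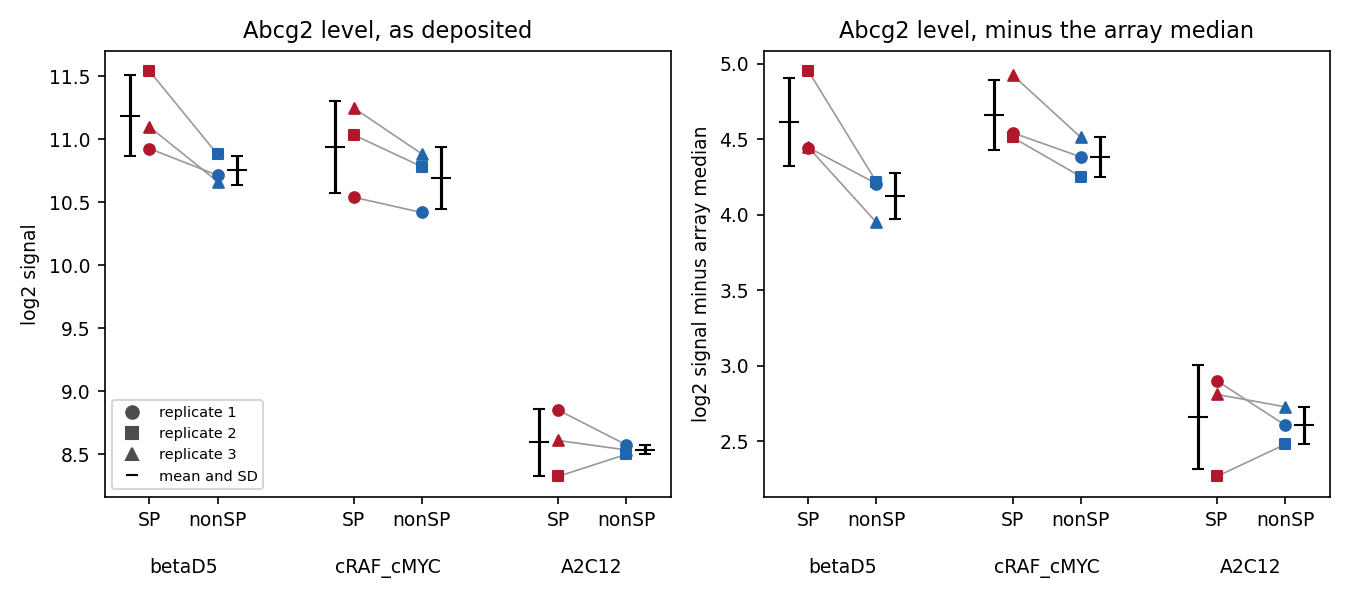
Log2 signal of the Abcg2 probe set in each of the 18 arrays, as deposited (left) and minus the median of its array (right). SP (red) and nonSP (blue) arrays with the same replicate number are joined, and black bars give the mean and SD of 3 arrays. The A2C12 arrays lie between 8.32 and 8.85 as deposited, below all others, which lie between 10.42 and 11.54.

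Group means were 11.19 ± 0.32 in SP and 10.75 ± 0.11 in nonSP cells of betaD5 (SD, n = 3 each). They were 10.94 ± 0.36 in SP and 10.69 ± 0.24 in nonSP cells of cRAF_cMYC, and 8.60 ± 0.26 in SP and 8.54 ± 0.04 in nonSP cells of A2C12. From the highest to the lowest the groups stood in the order betaD5 SP, cRAF_cMYC SP, betaD5 nonSP, cRAF_cMYC nonSP, A2C12 SP and A2C12 nonSP. Of the 5 steps between neighbours in that order only 1 passed the test: cRAF_cMYC nonSP cells lay above A2C12 SP cells by 2.10 (log2, limma adjusted p = 8.01e-06). The other steps were 0.25, 0.19, 0.06 and 0.06, each smaller than its standard error of 0.23 or close to it.

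The comparison of SP with nonSP cells came next. Same-numbered arrays are treated as pairs, since their deviations from the group means correlated over genes in all 9 cases. In betaD5 2 the correlation was lower with the own number (0.618) than with another (0.684), so the split between betaD5 2 and 3 is uncertain, while the mean of the line does not depend on it. SP minus nonSP for Abcg2 was 0.21, 0.66 and 0.43 in the 3 betaD5 pairs, 0.12, 0.25 and 0.36 in the cRAF_cMYC pairs and 0.28, -0.18 and 0.07 in the A2C12 pairs. Abcg2 was therefore higher in SP cells in 8 of 9 pairs, the exception being A2C12 2, and 6.29% of all 10916 tested genes were higher in SP cells in at least 8 pairs. All 3 pairs pointed up in betaD5 and in cRAF_cMYC, which was the case for 15.8% and 21.3% of genes. Non-overlap of the fractions as in betaD5 was found in 2.31% of genes. The largest pair difference, in betaD5 2, was 1.58-fold, so even there the difference within a line was small beside that between lines.

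**Figure D2:**
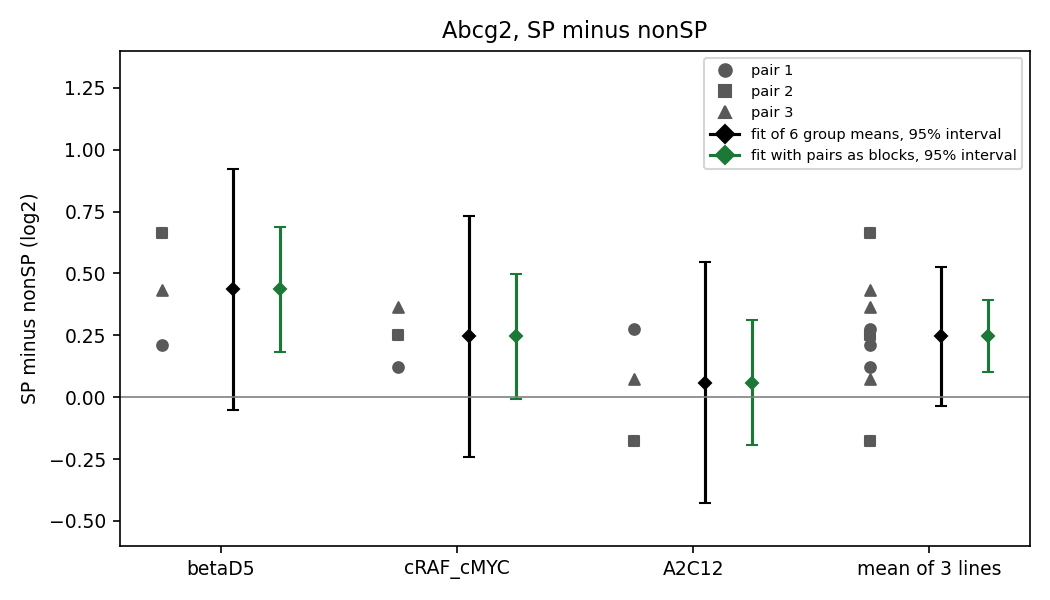
SP minus nonSP difference of Abcg2 (log2) in each line as labelled and for the mean of the 3 lines. Grey symbols are the pairs, and diamonds with bars are the estimate and 95% interval of the fit of 6 group means (black) and of the fit with pairs as blocks (green). The betaD5 and cRAF_cMYC pairs all lie above 0, and 1 A2C12 pair lies below it.

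In the fit across all genes, the mean difference over the 3 lines was 0.25 (SE 0.13, 95% interval -0.03 to 0.53), a 1.19-fold higher level in SP cells, with an unadjusted p of 0.0812 and an adjusted p of 1. By line it was 0.44 in betaD5 (-0.05 to 0.92), 0.25 in cRAF_cMYC (-0.24 to 0.73) and 0.06 in A2C12 (-0.43 to 0.54), all with SE 0.23 and adjusted p of 1. This fit called 0% of genes in each of these 4 comparisons at an adjusted p under 0.05, and at an unadjusted p under 0.05 it held 14 genes (0.128%) for betaD5, 18 (0.165%) for cRAF_cMYC, 1 (0.00916%) for A2C12 and 36 (0.33%) for the mean. Abcg2 missed the threshold in each of them. With pairs as blocks the intervals narrowed, to 0.10 to 0.39 for the mean, 0.18 to 0.69 in betaD5, -0.01 to 0.50 in cRAF_cMYC and -0.19 to 0.31 in A2C12. The mean then had an unadjusted p of 0.00328 and an adjusted p of 0.22, and betaD5 0.00289 and 0.298. That fit also called 0% of genes in each comparison, with 1437 genes (13.2%) at an unadjusted p under 0.05 for the mean, 1298 (11.9%) in betaD5, 899 (8.24%) in cRAF_cMYC and 187 (1.71%) in A2C12. Genes at such a p and higher in SP cells were 9.42%, 8.68%, 5.27% and 0.87% in the same order. A difference as high as that of Abcg2 was found in 2.33% of genes for the mean, 1.87% in betaD5, 7.13% in cRAF_cMYC and 25.8% in A2C12.

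For Abcg2 taken as a single value, an exact two-sided sign-flip permutation test over the 9 pairs gave a mean of 0.25 ± 0.24 (SD) and p = 0.0156, where 0.00391 is the smallest p it allows. This p concerns 1 gene and is not adjusted over the table. Without the pairs betaD5 1 and cRAF_cMYC 3 the mean of 7 pairs was 0.23 and the exact p was 0.0625, the smallest possible being 0.0156. The fit without these pairs gave 0.55 in betaD5, 0.19 in cRAF_cMYC and 0.26 for the mean, again with adjusted p of 1.

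The log2 ratio between the 3' and the 5' signal of control transcripts, a measure of RNA and cDNA length, moved with the betaD5 difference. SP minus nonSP of this ratio for Gapdh was 0.66 and 0.93 in betaD5 2 and 3, the 2 pairs with the largest Abcg2 differences, and lay between -0.56 and 0.13 in the other 7 pairs. The Actb ratio differed by 0.88 and 0.79 in these 2 pairs. With the ratio as a covariate the betaD5 difference of Abcg2 was 0.27 (SE 0.30), or 0.29 (SE 0.14) with pairs as blocks, and the mean of the lines was 0.20. Without betaD5 2 and 3 the mean over the 7 other pairs was 0.16, with 6 of 7 higher in SP cells and an exact sign-flip permutation p of 0.0625. The part of RNA quality in the betaD5 difference was not tested further. In the cRAF_cMYC pairs the Gapdh ratio differed by 0.06, -0.56 and -0.07 and the Actb ratio by 0.17, -0.43 and -0.05. In the A2C12 pairs the Gapdh ratio differed by 0.13, -0.04 and 0.03 and the Actb ratio by 0.33, -0.0001 and 0.10. Both stood in the same order there as the Abcg2 differences of 0.28, -0.18 and 0.07. The part of RNA quality in these 2 lines was not tested either.

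Whether the SP difference of Abcg2 itself differed between lines was tested as an interaction. It was larger by 0.38 in betaD5 than in A2C12 (-0.31 to 1.06), by 0.19 in cRAF_cMYC than in A2C12 (-0.50 to 0.87) and by 0.19 in betaD5 than in cRAF_cMYC (-0.50 to 0.88). None passed the test, all with adjusted p of 1, and 0% of genes were called in each, with 0.0275%, 0.0275% and 0% at an unadjusted p under 0.05. With pairs as blocks the betaD5 and A2C12 differences were apart by an interval of 0.02 to 0.73, with an unadjusted p of 0.04 and an adjusted p of 0.907. In that fit 0% of genes were called as well. At an unadjusted p under 0.05 were 5.06%, 4.62% and 2.26% of genes in the 3 comparisons, and 3.83%, 3.11% and 1.39% with a positive difference. These comparisons of lines share the pairs of A2C12 or of betaD5. A difference between lines in how far Abcg2 separates SP from nonSP cells was thus not shown.

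Between lines, Abcg2 rose in betaD5 and in cRAF_cMYC relative to A2C12 in both fractions. Among nonSP cells it was higher by 2.22 in betaD5 (SE 0.23, 4.65-fold, adjusted p = 2.76e-06) and by 2.16 in cRAF_cMYC (SE 0.23, 4.46-fold, adjusted p = 5.85e-06). Among SP cells it was higher by 2.59 (6.03-fold, adjusted p = 5.21e-07) and by 2.35 (5.08-fold, adjusted p = 2.17e-06). As deposited, 55.2% of genes were called for betaD5 among nonSP cells (53.1% higher, 2.11% lower) and 28.5% for cRAF_cMYC (26.3% higher, 2.28% lower). Among SP cells 57.2% were called for betaD5 (55.3% higher, 1.89% lower) and 31.8% for cRAF_cMYC (29.4% higher, 2.43% lower). The median gene was higher by 0.71 and 0.45 among nonSP cells. After subtracting array medians the nonSP differences of Abcg2 were 1.52 (SE 0.19, adjusted p = 5.73e-05) and 1.78 (SE 0.19, adjusted p = 1.59e-05), where 13% and 11.8% of genes were called higher and 10.8% and 7.2% lower. The SP differences were then 1.96 and 2.00, where 17.1% and 16.2% of genes were called higher and 8.1% and 6.74% lower. Quantile normalization gave nonSP differences of 1.53 and 1.71, with 15.6% and 12% of genes called higher and 13.2% and 10.4% lower. Its SP differences were 1.84 and 1.86, with 15.6% and 13.3% higher and 13% and 11.4% lower. A difference as high as that of Abcg2 among nonSP cells was found in 2.31% of genes for betaD5 and in 1.7% for cRAF_cMYC.

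**Figure D3:**
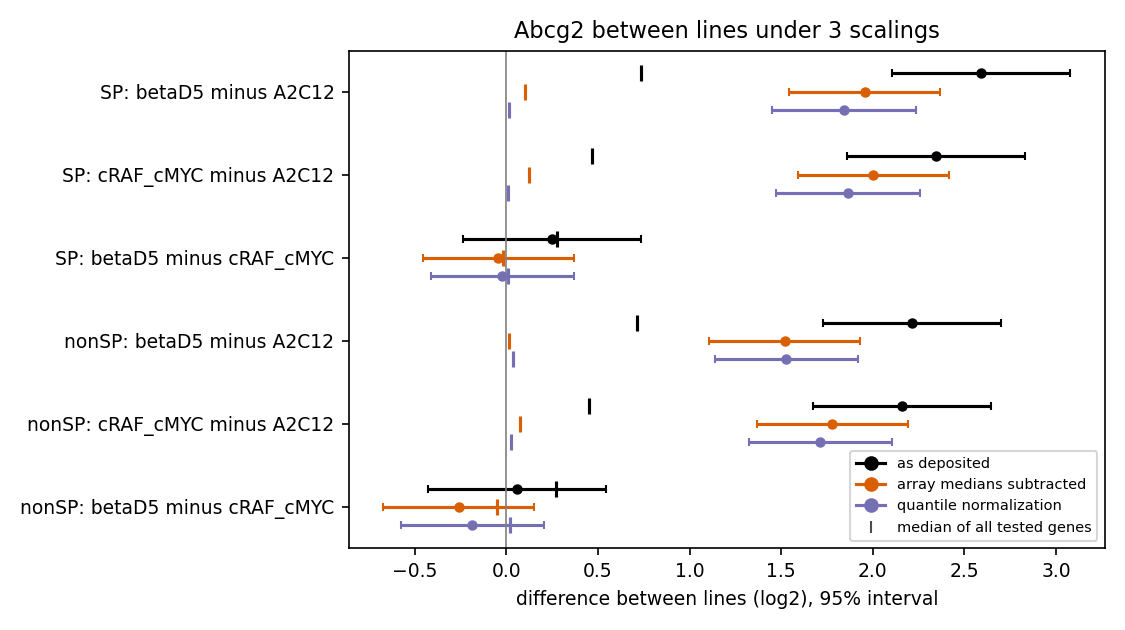
Differences of Abcg2 between lines as labelled (log2, points with 95% intervals) among SP and among nonSP cells, as deposited, after subtracting array medians and after quantile normalization. Short vertical ticks give the median of all tested genes. Both differences from A2C12 stay above 1 in all 3 scalings and lie apart from the ticks, and the betaD5 minus cRAF_cMYC interval includes 0.

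Over both fractions, the 6 arrays of each line averaged 10.97 ± 0.32 in betaD5, 10.82 ± 0.31 in cRAF_cMYC and 8.57 ± 0.17 in A2C12. The lowest of the 12 betaD5 and cRAF_cMYC arrays, at 10.42, lay 1.57 above the highest A2C12 array, at 8.85, a 2.96-fold gap. Complete separation upward was found in 28.1% of genes on the deposited scale, and a gap at least as wide in 0.87%. Between betaD5 and cRAF_cMYC no difference was called: betaD5 minus cRAF_cMYC was 0.06 among nonSP cells (-0.43 to 0.54) and 0.25 among SP cells (-0.24 to 0.73). These turn to -0.26 and -0.05 after subtracting array medians. Between these lines 0% of genes were called in either fraction, and 6.31% and 4.66% were at an unadjusted p under 0.05 among nonSP and SP cells. Without the pairs betaD5 1 and cRAF_cMYC 3, 1218 genes were called among nonSP cells. For Abcg2 the nonSP differences from A2C12 without these pairs were 2.24 and 2.06, and that between betaD5 and cRAF_cMYC was 0.17.

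Mesothelial markers moved with the line difference of Abcg2. Their mean log2 level ran from 10.4 to 12.2 in betaD5 and from 10.1 to 11.5 in cRAF_cMYC, against 5.13 to 5.42 in A2C12, and all 4 were called higher in both lines among nonSP cells. Upk3b, a uroplakin family member of the mesothelial surface, was higher by 8.37 and 8.48, and Msln, the mesothelial surface protein mesothelin, by 3.23 and 2.97. Of the 6 fibroblast markers tested, 3 were called higher in betaD5 and 4 in cRAF_cMYC, where 53.1% and 26.3% of all genes were, with Col1a2, a collagen I chain, higher by 1.98 and 1.96. After subtracting array medians 4 of 4 mesothelial markers were still called higher in each line, and 2 of 6 fibroblast markers in betaD5 and 3 of 6 in cRAF_cMYC. Col1a2 was then higher by 1.29 and 1.58. Col1a1, the other chain of collagen I, differed by 0.12 and 0.03 and was not called (adjusted p = 0.897 and 0.976). Of all genes 13% and 11.8% were then called higher in betaD5 and cRAF_cMYC. As deposited, 1 of 4 tested epithelial and 1 of 2 tested alveolar type II markers were called higher in each line. After subtracting array medians 0 of these markers were called higher in either line. The part of these cell identities in the Abcg2 difference was not tested.

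The ABCG subfamily besides Abcg2 includes sterol and lipid exporters and gave no SP difference past the test. Abcg4, a sterol transporter of the brain, had a mean SP minus nonSP of -0.08 (SE 0.12) and was higher in SP cells in 2 of 9 pairs. Abcg8, which pairs with Abcg5 to export sterols into bile, had -0.05 (SE 0.13), also with 2 of 9. Abcg1, a cholesterol exporter of macrophages, Abcg3, a rodent-specific member, and Abcg5 lay below the filter, with highest array values of 6.95, 6.72 and 5.15. Among nonSP cells Abcg4 and Abcg8 were higher in betaD5 than in A2C12 by 0.86 and 0.75 as deposited (adjusted p = 0.00313 and 0.0115) but by 0.17 and 0.05 after subtracting array medians, neither then called. Abcg2 was the member called in both lines under either scaling.

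The other dye and drug efflux genes were 13 in number, of which 10 passed the filter. Of these, 4 had a mean SP difference above 0, with a list median of -0.01, against 54.3% of all genes above 0 with a median of 0.01, and 0 were called. Abcb1a had 0.13 (SE 0.19) with 5 of 9 pairs higher in SP cells, and Abcb1b had 0.22 (SE 0.18) with 6 of 9. Their pair differences were uneven, from -0.61 to 0.93 for Abcb1a and from -0.38 to 0.92 for Abcb1b, with the highest value of each in betaD5 2, the pair in which Abcg2 also differed most. Abcc1, an exporter of glutathione conjugates, had -0.01 (SE 0.23). Abca3, the lipid transporter of lamellar bodies, had -0.14 (SE 0.17) with 2 of 9 pairs higher.

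**Figure D4:**
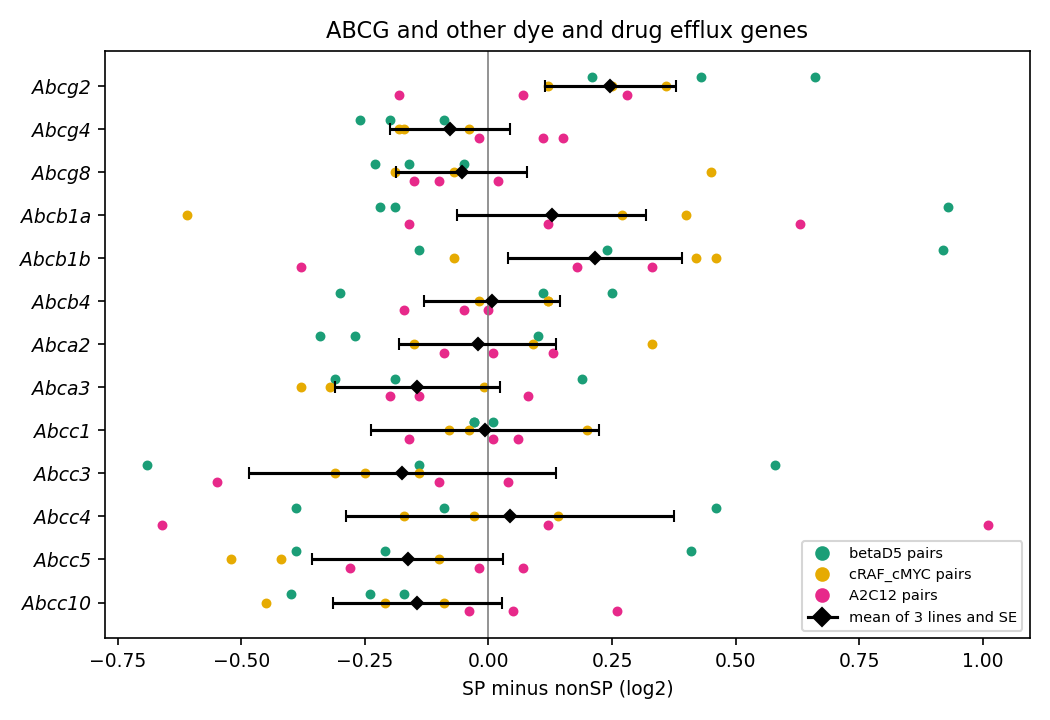
SP minus nonSP difference (log2) of the tested ABCG genes and of the other dye and drug efflux genes. Small points are the 9 pairs, coloured by line as labelled, and diamonds with bars give the mean of the 3 lines and its SE from the fit across all genes. Abcg2 has 8 of 9 points above 0 and a mean of 0.25, and no gene passed the test.

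Between lines, 5 of 10 efflux genes were called higher in betaD5 than in A2C12 among nonSP cells as deposited and 1 of 10 in cRAF_cMYC, where 53.1% and 26.3% of all genes were. After subtracting array medians 0 were called higher in either, where 13% and 11.8% of all genes were, and 1 and 3 were called lower, where 10.8% and 7.2% were. Abcc3, an exporter of bile salts and glucuronides, was then lower by 1.56 and 1.69 (adjusted p = 0.0261 and 0.0205). Abcb1a was lower in cRAF_cMYC by 0.99 (adjusted p = 0.0466). Abcb1b was 10.5 ± 0.17 in betaD5 and 9.26 ± 0.36 in A2C12 nonSP cells, a difference of 1.21 as deposited (adjusted p = 0.00383) and of 0.51 after subtraction (adjusted p = 0.196).

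Transcription factors and other genes known to act on Abcg2 transcription were represented by 18 tested genes of 22 listed. For the mean SP difference 14 of them lay above 0 with a median of 0.04, and 0 were called. Of all genes 54.3% lay above 0, with a median of 0.01. Nr3c1, the glucocorticoid receptor, had 0.20 (SE 0.16) and Nfe2l2, the antioxidant response factor, 0.25 (SE 0.21), each higher in SP cells in 8 of 9 pairs. Nfe2l2 fell outside that direction in A2C12 1, at -0.67. Between lines, 7 were called higher in betaD5 and 5 in cRAF_cMYC than in A2C12 among nonSP cells as deposited, and 4 and 2 after subtracting array medians, with 1 lower in each. Of all genes 53.1% and 26.3% were called higher as deposited and 13% and 11.8% after subtraction. Nr3c1 was higher by 2.55 in betaD5 and 2.17 in cRAF_cMYC, and by 1.85 and 1.79 after subtraction (adjusted p = 4.54e-05 and 7.27e-05). Gli2, a transcription factor of the Hedgehog pathway, was higher by 3.10 and 3.57, and by 2.41 and 3.19 after subtraction (adjusted p = 0.00796 and 0.00142). Rbpj, the DNA-binding partner of Notch, was higher by 0.56 in betaD5 after subtraction (adjusted p = 0.047), and by 0.38 in cRAF_cMYC, where it was not called (adjusted p = 0.192). The member called lower in betaD5 was Notch1, at -0.86 (adjusted p = 0.0401), against -0.63 in cRAF_cMYC (adjusted p = 0.141). In cRAF_cMYC it was Klf5, at -1.17 (adjusted p = 0.0244), against -0.61 in betaD5 (adjusted p = 0.21). Gli1 differed by -1.29 and -0.995 after subtraction, called in neither line (adjusted p = 0.0759 and 0.188).

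Genes induced by the factors above were set beside them. Of 19 tested hypoxia response genes, 16 had a mean SP difference above 0, with a median of 0.16, where 54.3% of all genes lay above 0 with a median of 0.01, and 0 were called in either fit. In the paired fit 10 of 19 were at an unadjusted p under 0.05, as were 13.2% of all genes. Kdm3a, a histone demethylase, had the smallest p, with 0.56 (SE 0.22, adjusted p = 1, 0.157 with pairs as blocks) and 8 of 9 pairs higher in SP cells. Pfkfb3, which drives glycolysis, had 0.43 (SE 0.20, adjusted p = 1, 0.166 with pairs as blocks) with 7 of 9. In A2C12 their differences averaged -0.09 and -0.20, as against 0.79 and 0.65 in betaD5 and 0.97 and 0.83 in cRAF_cMYC. Of the aryl hydrocarbon receptor targets 4 were tested and 0 called. Tiparp, a repressor of that receptor, had 0.61 (SE 0.26), ranging from -0.60 in A2C12 1 to 2.54 in betaD5 2. Aldh3a1, an aldehyde dehydrogenase, was lower among nonSP cells by 6.51 in betaD5 and 7.25 in cRAF_cMYC than in A2C12, opposite to Abcg2.

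Genes that handle the known cargo of Abcg2 were taken next. Of 18 tested genes of porphyrin and haem handling, 11 had a mean SP difference above 0, with a median of 0.02, and 0 were called. The share of all genes above 0 was 54.3%, with a median of 0.01. Tspo, a mitochondrial protein that binds porphyrins, was lower in SP cells in 9 of 9 pairs by a mean of -0.16 (SE 0.13, adjusted p = 1, 0.22 with pairs as blocks). Hmox1, which breaks down haem, had 0.32 (SE 0.31). Between lines 3 were called higher and 4 lower in betaD5 after subtracting array medians, and 2 and 1 in cRAF_cMYC. Of all genes 13% were then called higher and 10.8% lower in betaD5, and 11.8% and 7.2% in cRAF_cMYC. Fech, which inserts iron into haem, was higher by 0.97 and 0.86. Ppox of the same list went the other way, at -1.05 and -0.85 (adjusted p = 0.00726 and 0.0278). Urod, Slc46a1 and Tspo were called lower in betaD5 only. The median of the list was -0.12 in betaD5 and -0.001 in cRAF_cMYC on this scale. Of 5 tested urate genes 0 were called for SP cells. Xdh, which makes urate, had -0.11 (SE 0.31) and Slc2a9, a urate transporter, -0.03 (SE 0.11). Of the 10 tested folate genes 0 were called for SP cells, and Slc19a1, the reduced folate carrier, had 0.10 (SE 0.14). Between lines 10 of 10 folate genes were called higher in betaD5 and 7 of 10 in cRAF_cMYC as deposited (53.1% and 26.3% of all genes), and 5 and 6 after subtraction (13% and 11.8%). Mthfd1, Shmt1 and Gart, enzymes of one-carbon and purine synthesis, were then higher by 1.69, 1.61 and 1.33 in betaD5 and by 1.42, 1.51 and 1.14 in cRAF_cMYC.

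Genes whose products place, degrade or phosphorylate the Abcg2 protein were 11 of 12 tested. For the mean SP difference 9 lay above 0 with a median of 0.08, and 0 were called. Of all genes 54.3% lay above 0, with a median of 0.01. Rnf5, a ubiquitin ligase of the endoplasmic reticulum, had -0.17 (SE 0.13) and Pim1, a kinase that phosphorylates human ABCG2, -0.23 (SE 0.19), each higher in 2 of 9 pairs. Between lines 7 were called higher in betaD5 and 4 in cRAF_cMYC as deposited, where 53.1% and 26.3% of all genes were, and 3 and 2 after subtraction, where 13% and 11.8% were. Pim1 was then higher by 1.07 and 1.09 (adjusted p = 0.00663 and 0.00705), and Cav1, the main protein of caveolae, by 0.46 and 0.63. Ezr, which ties membrane proteins to actin, was higher by 1.28 in betaD5 (adjusted p = 0.0223) and by 0.94 in cRAF_cMYC, where it was not called (adjusted p = 0.0938).

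The genes most like Abcg2 in level were found by the root mean square distance between log2 values over the 18 arrays, each gene centred on its own mean. Among 10553 genes compared they were Rnf138 at 0.188, Rbm27 at 0.189, Nr3c1 at 0.218, Slc25a46 at 0.224, Kif20a at 0.229 and Nt5dc1 at 0.234, where the median gene lay at 0.895 and Abcg2 varied around its own mean by 1.13. Rnf138 is a ubiquitin ligase, Slc25a46 a protein of the outer mitochondrial membrane and Kif20a a kinesin of cell division. All 6 showed the step between A2C12 and the other lines, and the same 6 were nearest after subtracting array medians. Rnf138, for instance, averaged 10.4 ± 0.17 in betaD5, 9.94 ± 0.41 in cRAF_cMYC and 7.95 ± 0.19 in A2C12 (SD, n = 6 each). The likeness rests on 3 lines and is a description.

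**Figure D5:**
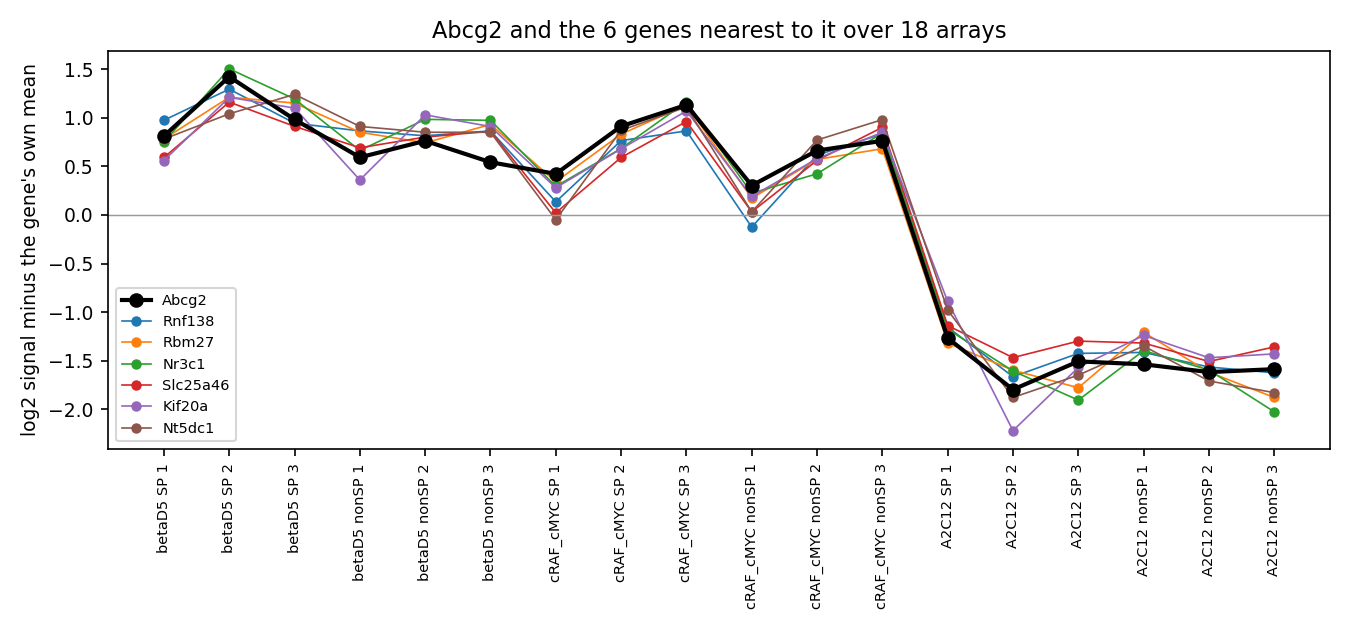
Log2 signal minus the gene's own mean over the 18 arrays for Abcg2 (black) and the 6 genes nearest to it. Lines join arrays that have no order and serve only to follow a gene. All 7 genes lie below their mean in the 6 A2C12 arrays, and Abcg2 has its highest value in betaD5 SP 2.

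The genes whose SP minus nonSP differences followed those of Abcg2 most closely over the 9 pairs were others. Spag1 had a Pearson r of 0.97 and a Spearman rho of 0.98, Cep89 0.97 and 0.98, Hip1 0.96 and 0.97 and Ctla2a 0.95 and 0.92, as descriptions of 9 pairs picked from all tested genes. Hip1, a clathrin adaptor, was higher in SP cells in 8 of 9 pairs by a mean of 0.15, and Cep89, a centrosomal protein, in 7 of 9 by 0.17. All 4 had their highest difference in betaD5 2, 1 of the pairs in which the 3' to 5' ratios differed. Abcg2 also differed most in that pair, and the 4 genes were picked for following it, so the shared pair follows from the choice.

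Abcg2 has the vomeronasal receptor genes Vmn1r28, Vmn1r29, Vmn1r30 and Vmn1r31 before it on chromosome 6 and Herc3, Nap1l5, Fam13a and Tigd2 after it. Vmn1r29 lay below the filter, and the other receptors had no probe set annotated to them alone. Herc3, a ubiquitin ligase, was higher among nonSP cells by 1.99 in betaD5 and 1.59 in cRAF_cMYC than in A2C12, and by 1.29 and 1.21 after subtracting array medians (adjusted p = 0.00402 and 0.00735). Tigd2, derived from a transposon, was higher by 1.18 and 1.11, and by 0.48 and 0.73 after subtraction (adjusted p = 0.0391 and 0.00452). Nap1l5 and Fam13a lay below the filter. Herc3 and Tigd2 had mean SP differences of 0.10 (SE 0.19) and 0.13 (SE 0.14) and were not called.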

How the data were processed

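Affymetrix 3' expression arrays had been made from SP and nonSP cells of 3 lines, 3 arrays per group. Per the labels, 200 ng of total RNA gave 10 µg of labelled cRNA. Per the submitters' processing notes, Affymetrix Expression Console was used, and its version, summary algorithm and normalization are not given in the sources used here. The deposited values are log2 signals for 45101 probe sets, from 2.28 to 15.3. Precision is set by the number of arrays. The labels do not say whether replicates were separate cultures, so p-values measure only the spread between these samples, which may be technical.

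Control probe sets (64) did not enter. Of the rest, 34945 carried 1 gene symbol, 932 several and 9160 none. Those with several or none were left unnamed, and 34741 were matched to current names by gene identifier. For each of 18193 genes the probe set of highest mean was used. Genes in the lowest 40% by mean were not tested, and the other 10916 were tested with limma 3.58.1 in R 4.3.3 (6 group means, trend, 12 residual degrees of freedom, two-sided, Benjamini-Hochberg over all genes, 0.05). The replicate numbers were taken to pair the arrays, because the deviations of same-numbered arrays correlated at 0.426 to 0.952 in 9 of 9 pairs, and the own number gave the highest value in 8. The exception is betaD5 2. The fit with pairs as blocks had 6 residual degrees of freedom. The fits were tested on simulated data. Promoter sequences and positions are from RefSeq (GRCm38.p6).

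Abcg2, the gene lists and the comparisons were chosen with earlier results of these data known. Named genes are Abcg2, the ABCG genes, Abcb1a, Abcb1b and Abcc1, the 6 nearest genes in level and 4 in difference, the 4 neighbours on each side, and of each list up to 4 called members, or the 2 with the smallest p. Other members named for their values after subtraction of array medians or for their place at the filter, and the range of 3' to 5' ratios, were chosen after those values were seen. Alternatives were other scalings, filters, probe set rules, no trend, leaving out arrays and pairs, a 3' to 5' covariate and single-line fits.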

Additional observations from a re-analysis of the deposited data

How the results depend on the processing

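The SP minus nonSP difference of Abcg2 missed the threshold over all genes in every alternative run. Leaving out single arrays gave 0.26 to 0.57 in betaD5, 0.09 to 0.45 in cRAF_cMYC, -0.07 to 0.19 in A2C12 and 0.19 to 0.31 for the mean of the lines. In A2C12 the direction turned without SP replicate 1 (-0.070), and without pair 1 in the fit with the replicate block (-0.050). Leaving out pairs with the replicate block gave 0.32 to 0.55, 0.19 to 0.31, -0.05 to 0.18 and 0.21 to 0.29. The replicate block changed no call. The sign-flip mean ran from 0.19 to 0.30 without 1 pair (exact p = 0.00781 to 0.0312) and was 0.23 without the 2 pairs of uncertain line (exact p = 0.0625, a design with fewer pairs). The mean of the lines without betaD5 2 and 3 was 0.17, chosen after seeing the data. The differences in SP effect ran from 0.20 to 0.51 (betaD5 minus A2C12), 0.03 to 0.39 (cRAF_cMYC minus A2C12) and -0.01 to 0.34 (betaD5 minus cRAF_cMYC, -0.011 without cRAF_cMYC SP replicate 1), the last being -0.027 with the 3' to 5' covariate.

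Both line differences from A2C12 stayed called in all alternatives run. Without single arrays they were 2.15 to 2.26 and 2.06 to 2.30 among nonSP cells, and 2.42 to 2.72 and 2.19 to 2.55 among SP cells. For betaD5 minus cRAF_cMYC the nonSP difference ran from -0.08 to 0.15 (-0.0055 without betaD5 nonSP replicate 2, -0.080 without cRAF_cMYC nonSP replicate 1) and the SP difference from 0.05 to 0.40. These were -0.19 and -0.022 with quantile normalization and -0.26 and -0.046 with array medians subtracted.

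The fit called 6021, 3115 and 0 genes among nonSP cells for betaD5 minus A2C12, cRAF_cMYC minus A2C12 and betaD5 minus cRAF_cMYC. The first count was 3144 with quantile normalization, 2596 with array medians subtracted, 10568 without the filter and 11247 with every probe set. The second was 2073 with medians subtracted and 5056 with every probe set, and the third was 1218 without the 2 pairs of uncertain line. Leaving out single arrays gave 4532 to 6479 and 1553 to 4977, the lowest without cRAF_cMYC nonSP replicate 2 and the highest without cRAF_cMYC nonSP replicate 1. The second count was 2009 and 1707 without A2C12 nonSP replicates 2 and 3 and 1981 without cRAF_cMYC nonSP replicate 3. The cause of the shifts on leaving out arrays was not tested. The calls with medians subtracted were 54.5% and 62.1% higher, against 96.2% and 92% as deposited. Groups of 3 arrays gave a standard error of 0.23 (log2) for each group difference of Abcg2.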

Other observations

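Of the 6 genes nearest to Abcg2 in level, Rnf138, Rbm27, Nr3c1, Slc25a46 and Kif20a lie on chromosome 18 and Nt5dc1 on chromosome 10, while Abcg2 lies on chromosome 6. Chromosome 18 holds 277 of the 10899 tested genes with a known chromosome, or 2.54%. After subtracting array medians, the difference between the 12 betaD5 and cRAF_cMYC arrays and the 6 A2C12 arrays had a median of 0.91 (log2) over the genes of chromosome 18, and 90.3% of them lay above 0. Chromosome 8 had a median of 0.43, chromosome 14 of -0.46 and chromosome 6 of 0.22. Abcg2 itself differed by 1.81 on that scale, and 1.68% of genes by as much.

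Around Abcg2 on chromosome 6, the 5 tested genes within 1 Mb on either side, Abcg2 left out, all lay above 0 on that scale, with a median of 0.73 and a range of 0.12 to 1.27. Within 2 Mb, 9 of 11 did, with a median of 0.48 and a lowest value of -0.45. Within 5 Mb, 17 of 23 did, with a median of 0.17, and within 10 Mb, 40 of 56, with a median of 0.28. Over all tested genes of chromosome 6, 67.9% lay above 0, with a median of 0.22. The windows and chromosomes were looked at after the nearest genes had been seen.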
